A study of Drosophila melanogaster with 9 samples.

Results

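The comparison set metastatic tumors at their 10th round of transplantation (T10) against the same kind of tumors at round 1 (T1), across all genes on the array. Of the 9 arrays of the series, all 6 that the sample labels assign to these rounds were used, 3 per round, and the 3 arrays of round 2 (T2) took no part in the fit. Both rounds carried the same genotype. The tumors came from clones in the adult Drosophila midgut that were mutant for both fly homologs of the human tumor suppressor APC, Apc (allele Q8) and Apc2 (allele N175K), and expressed activated Ras (UAS-RasV12), Snail (UAS-Sna) and GFP under esg-Gal4, a driver active in the progenitors of the gut. Macrometastases from the abdomens of 3 flies were injected into adult female yw hosts, and at each round a piece of the allograft was lysed for RNA while the other pieces went into new hosts. The rounds therefore differed in the number of passages and, with it, in time, and no other treatment is given. A lysed piece could hold host tissue along with tumor, and in such bulk samples fewer cells of a type and less RNA per cell cannot be told apart. Samples of a round are labelled as technical replicates, and nothing in the labels ties a replicate number to one of the 3 flies, so every p-value reflects only how far these samples scatter, which may in part be technical. The study profiled these rounds to follow how transcripts of epithelial structure differed with the age of a metastasis.

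Epithelia of the fly are held together by cadherins at adherens junctions and by septate junctions, which come in a pleated form in ectodermal tissues such as epidermis, trachea and imaginal discs, and in a smooth form in the midgut. Ectodermal epithelia lay down chitin and an apical matrix of zona pellucida proteins on their outer face. The midgut instead builds a peritrophic matrix and absorbs and stores lipids. Snail is a zinc finger repressor that lowers epithelial genes in the embryonic mesoderm. The data show transcripts of all these systems side by side.

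Each value is a log2 expression value after RMA, a method that corrects background and summarizes the probes of a probe set, so a difference of 1 is a 2-fold difference. Medians of the 6 arrays lay between 6.49 and 6.57. Values of 3 arrays are given in the order of replicates 1, 2 and 3. A probe set or gene is called here where the Benjamini-Hochberg adjusted p from limma over all 18769 probe sets was under 0.05. By this rule 560 probe sets were higher in T10 (2.98% of those tested) and 562 were lower (2.99%). Higher probe sets had a median log2 difference of 2.0 and reached 6.21, while lower ones had a median of -1.23 and reached -5.81. A difference of 3 or more was seen in 145 higher and 72 lower probe sets. The rounds did not overlap at any called probe set, and over all probe sets the 3 T10 arrays lay above the 3 T1 arrays at 12.9% and below them at 15.1%. With 1 probe set per named gene, the one with the highest mean, 350 of 11982 genes were higher (2.92%) and 407 lower (3.4%), and the gene counts below are to be read against these shares and against a median log2 difference of -0.01 over all probe sets. Arrays of a round correlated at 0.967 to 0.977 in T10 and at 0.972 to 0.989 in T1, and arrays of different rounds at 0.92 to 0.961. Each T10 array correlated best, among T1 arrays, with T1 replicate 3. The call counts depended on every array. They were 400 higher and 258 lower without T10 replicate 1, 282 and 179 without T10 replicate 2, 323 and 266 without T10 replicate 3, 132 and 155 without T1 replicate 1, 177 and 131 without T1 replicate 2, and 806 and 1053 without T1 replicate 3. All 560 higher and 562 lower probe sets kept their direction in these 6 fits, and 118 higher and 83 lower ones were called in all of them. With the T2 arrays in the same limma fit, all 9 arrays gave 0 higher and 2 lower probe sets, those of Lim3 and HDAC11, and 8 arrays without T2 replicate 3 gave 687 higher and 743 lower. On the 6 arrays 4215 probe sets had an unadjusted p under 0.05.

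**Figure D1:**
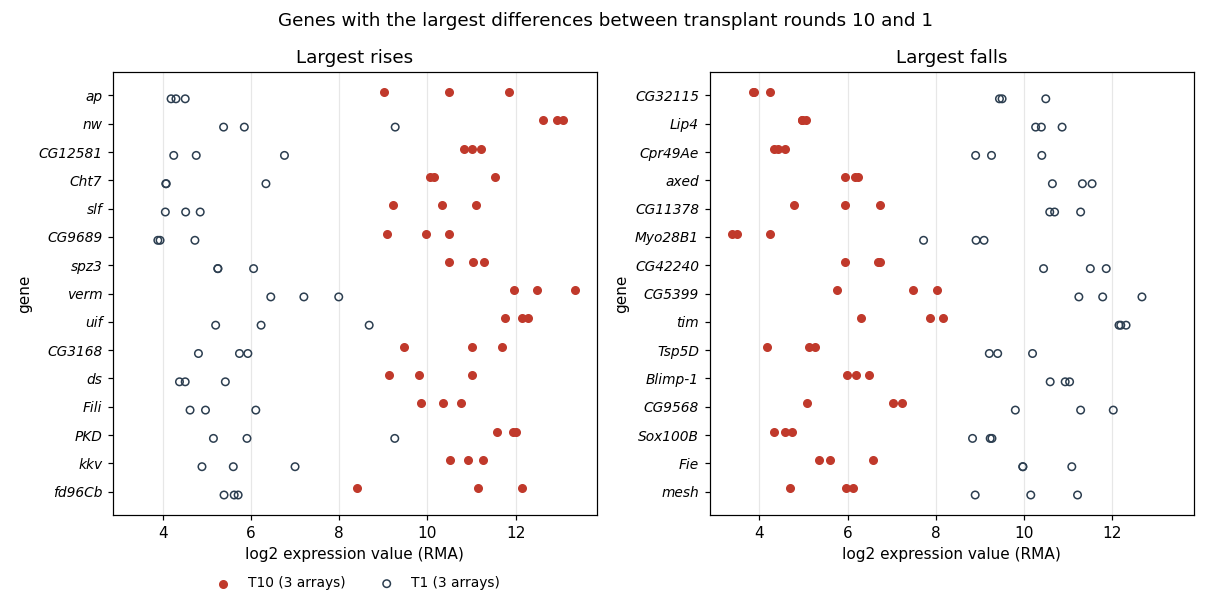
Log2 expression values of the 15 genes with the largest rises (left) and the 15 with the largest falls (right) among called genes, 1 row per gene, with filled points for the 3 T10 arrays and open points for the 3 T1 arrays. The rounds stood apart in every row, and ap lay between 9.01 and 11.86 in T10 and between 4.19 and 4.51 in T1.

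Among named genes, with 1 probe set each, the largest measured rise was that of ap, which encodes the LIM-homeodomain selector of dorsal wing identity. Its log2 values were 9.01, 11.86 and 10.50 in T10, against 4.51, 4.19 and 4.30 in T1. All T1 values were below the lower quartile of probe sets (5.01), so the transcript was near the floor of the array at round 1 and the size of its rise is not exact. The difference was 6.12 (SE 0.68, adjusted p = 0.0105), and a second probe set of ap differed by 4.64. The other leading rises were nw, Cht7, slf, spz3, verm, uif, ds, Fili, PKD, kkv, fd96Cb and the uncharacterized CG12581, CG9689 and CG3168, with log2 differences between 4.99 and 6.04. Among the uncharacterized genes, CG12581 was at 11.02, 11.22 and 10.82 in T10 and at 4.76, 4.25 and 6.76 in T1, and CG9689 at 10.48, 9.97 and 9.09 in T10 and at 3.89, 3.94 and 4.73 in T1. In nw, uif and PKD, T1 replicate 3 lay at 8.68 to 9.27 while the other T1 arrays were at 5.15 to 6.23, and each of these 3 genes was called in 1 of the 6 fits without 1 array. The largest fall was that of the uncharacterized CG32115, at 3.88, 3.86 and 4.25 in T10 and 10.49, 9.50 and 9.44 in T1 (difference -5.81, adjusted p = 0.00205). Next came Lip4, a member of the lipase family. It was at 4.97, 5.05 and 4.96 in T10, against 10.39, 10.26 and 10.86 in T1, a difference of -5.51 (SE 0.17, adjusted p = 0.000623).

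Several genes that build and modify chitin rose in T10, while genes of the chitinase family were called in both directions. Of 30 chitin genes with a named probe set, 7 were higher and 3 lower. The list's median log2 difference was 0.49. Transcripts of kkv, the chitin synthase of ectodermal epithelia and trachea, were at 10.91, 11.27 and 10.51 in T10 and at 5.6, 4.89 and 7.0 in T1. No T1 array came within 3 log2 units of a T10 array, and the difference was 5.07 (SE 0.55, adjusted p = 0.00896). Both chitin deacetylases that shape the tracheal lumen moved with it. Values of verm were 13.34, 12.48 and 11.97 in T10 and 7.20, 6.45 and 7.99 in T1, a difference of 5.38 (adjusted p = 0.0059). Those of serp were 12.97, 11.42 and 10.81 in T10 and 6.91, 6.17 and 7.18 in T1, a difference of 4.98 (adjusted p = 0.0119). Both lay above the upper quartile of probe sets (9.21 to 9.24) on every T10 array and below it on every T1 array. Of the chitinase family, Cht7 and Cht6 rose, with differences of 5.75 and 4.15, and all 3 probe sets of Cht6 were called. The chitin organizer knk rose by 4.05, and obst-B, which encodes a chitin-binding protein, by 3.16. Gasp and obst-E, which encode further chitin-binding proteins, had differences of 3.88 and 3.63 but scattered widely among the T10 arrays (9.85, 6.04 and 9.05 for Gasp) and did not pass (adjusted p = 0.0945 and 0.121).

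The other chitin synthase of the fly, Chs2, which serves the gut, ran the opposite way without passing. It was at 6.99, 5.92 and 7.72 in T10 and at 10.02, 9.53 and 12.09 in T1, a difference of -3.67 (adjusted p = 0.053). The rounds did not overlap, and T1 replicate 3 held the highest value. Cht4 was at 6.05, 6.08 and 5.72 in T10 and at 8.23, 9.23 and 10.22 in T1, a difference of -3.28 (adjusted p = 0.0218). Cht8 and Cht9, also of the chitinase family, fell by 2.18 and 1.91. Without T1 replicate 1 or T1 replicate 2 the list had 2 higher genes, and without T10 replicate 2 it had 1 lower gene. Among 127 genes of the Cpr, Tweedle and Osiris cuticle families, 2 were higher (Cpr64Ac and Cpr49Ac) and 2 lower (Cpr49Ae and Cpr51A), and the median was 0.03. Cpr49Ae was one of the largest falls, at 4.33, 4.57 and 4.42 in T10 and at 9.26, 10.40 and 8.90 in T1. The structural cuticle proteins as a family were thus called at no more than the share of all genes. Many of them were dim in both rounds, such as Osi6, at 3.04 to 3.13 in T10 and 3.08 to 3.10 in T1. For such dim genes the lack of a call says little.

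**Figure D2:**
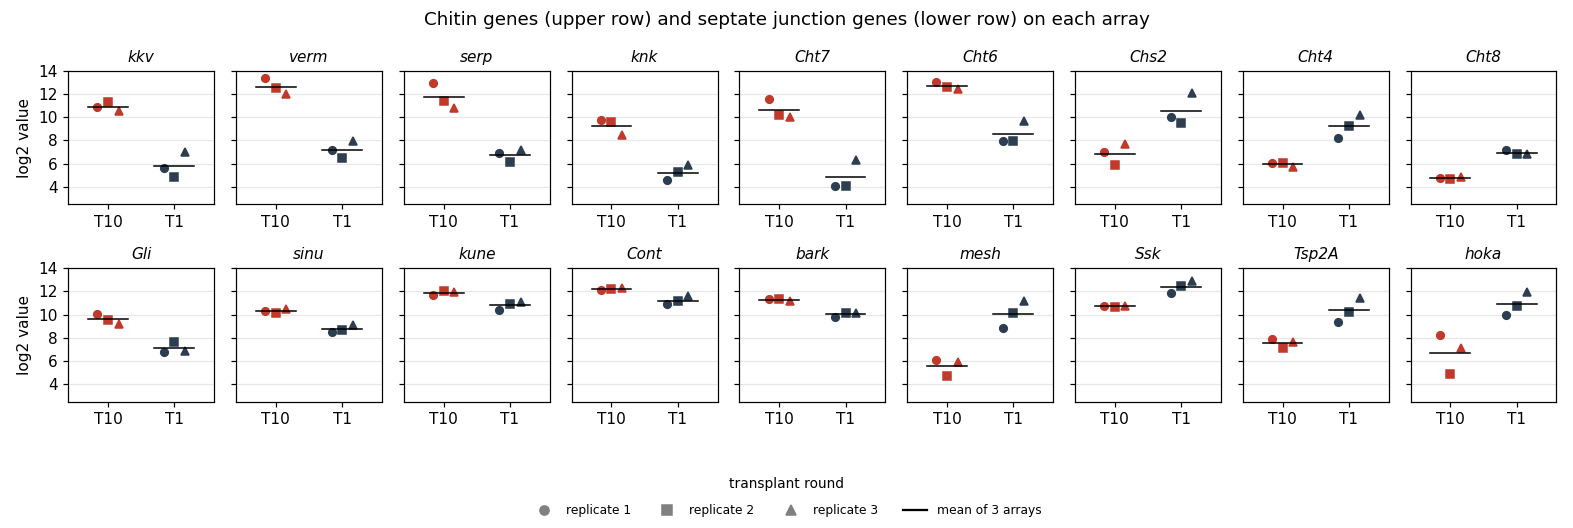
Log2 values of 9 chitin genes (upper row) and 9 septate junction genes (lower row), each array as 1 symbol by replicate number, T10 to the left of T1, with a line at the mean of 3 arrays. The chitin synthase kkv was high in T10 while Chs2 was high in T1, and the pleated junction genes Gli to bark stood higher in T10 while the smooth junction genes mesh to hoka stood higher in T1.

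Genes of the apical extracellular matrix formed the second group that rose. Among 14 genes with a named probe set, 4 were higher, none was lower and the median was 1.29. The zona pellucida domain genes dpy and pio encode large and small matrix proteins that tie epithelia to cuticle. For dpy the values were 12.66, 12.80 and 12.29 in T10 and 7.92, 6.71 and 8.97 in T1, a difference of 4.72 (adjusted p = 0.0119). For pio they were 12.50, 11.71 and 11.87 in T10 and 7.12, 6.48 and 8.55 in T1, a difference of 4.64 (adjusted p = 0.0119), and all 3 of its probe sets were called. The transmembrane protein gene uif, known from tracheal growth, differed by 5.36, and fw by 2.51. The matrix genes qsm and dyl had differences of 3.31 and 2.72 with no overlap between rounds, but did not pass (adjusted p = 0.141 and 0.0673). No gene of this list was called without T1 replicate 1.

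In the list of the trachea, the 4 higher genes of 14 were verm, uif, serp and pio, all counted above. No transcription factor or receptor gene of tracheal cells in this list was called, and their differences ran in both directions. The FGF receptor gene btl, expressed in tracheal cells, was at 7.69, 8.18 and 8.45 in T10 and 8.99, 9.29 and 10.58 in T1 (difference -1.51, adjusted p = 0.118), and knrl and kni lay between 3.40 and 4.26 on all 6 arrays. The POU gene vvl was at 7.06, 10.88 and 8.22 in T10 and 5.47, 5.28 and 5.77 in T1 (difference 3.21, adjusted p = 0.115). Another factor gene, salm, was at 7.02, 10.15 and 7.5 in T10 and 6.68, 5.47 and 4.35 in T1 (difference 2.72, adjusted p = 0.175). Both lay above T1 on every T10 array, while tgo and rib lay below T1 on every T10 array (differences -0.27 and -0.81). The epidermal barrier gene grh, which encodes the Grainyhead activator of cuticle and wound genes, was at 6.86, 7.87 and 7.26 in T10 and 5.09, 4.87 and 5.47 in T1. It rose by 2.19 (adjusted p = 0.0162), and by 4.73 at its other probe set (adjusted p = 0.00742). Of the 12 genes of the epidermal barrier and cuticle hardening, grh and stw, which encodes a laccase of cuticle tanning, were higher and none was lower, and no gene of this list was called without T10 replicate 3, T1 replicate 1 or T1 replicate 2. The tanning enzyme genes ple and Ddc were at 3.50 to 3.78 and at 6.95 to 7.74 in T10, and their adjusted p was 0.547 and 0.451.

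Septate junction genes split by junction type. Of 20 pleated septate junction genes 11 were higher and none was lower, with a median of 1.10, and 19 of the 20 differences were positive. Of the 4 smooth septate junction genes 3 were lower and all 4 lay below T1 on every T10 array, with a median of -3.49. The tricellular junction gene Gli led the rises, at 10.09, 9.56 and 9.19 in T10 and at 6.78, 7.63 and 6.91 in T1 (difference 2.51, adjusted p = 0.0144). The claudin gene sinu was at 10.33, 10.16 and 10.46 in T10 and 8.52, 8.68 and 9.10 in T1, a difference of 1.55. The other 9 higher genes were crim, Tsf2, bou, bark, vari, cold, pasi1, kune and Cont, with differences between 1.0 and 1.45. Of these 11, bark and cold stayed called without any 1 array. For bark, another tricellular component, the values were 11.31, 11.35 and 11.16 in T10 and 9.80, 10.12 and 10.13 in T1. Nrx-IV and pasi2 had differences of 1.32 and 1.23 and did not pass (adjusted p = 0.0817 and 0.0666).

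Of the smooth junction genes, mesh had the widest difference between rounds. Transcripts of mesh, which encodes a membrane protein of the smooth junction, were at 6.13, 4.69 and 5.96 in T10 and at 8.89, 10.15 and 11.21 in T1. The difference was -4.49 (SE 0.67, adjusted p = 0.0219), while a second, dim probe set of the gene did not differ beyond its spread (-0.07, adjusted p = 0.732). Its partner Tsp2A, a tetraspanin, was at 7.90, 7.09 and 7.67 in T10 and 9.38, 10.27 and 11.45 in T1, a difference of -2.81. The third component, Ssk, fell by 1.66 and remained bright, at 10.76, 10.70 and 10.73 in T10 against 11.83, 12.46 and 12.87 in T1. The fourth, hoka, was at 8.21, 4.90 and 7.11 in T10 and 10.01, 10.78 and 11.91 in T1, a difference of -4.16 that did not pass (adjusted p = 0.06). In all 4 genes T1 replicate 3 held the highest value of the 6 arrays. The count of 11 higher pleated genes was 3 without T1 replicate 1, 5 without T1 replicate 2, 6 without T10 replicate 1, 4 without T10 replicate 2, 5 without T10 replicate 3 and 13 without T1 replicate 3. The count of 3 lower smooth genes was 1 without T10 replicate 1 and 0 without T10 replicate 2, T10 replicate 3 or T1 replicate 2.

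**Figure D3:**
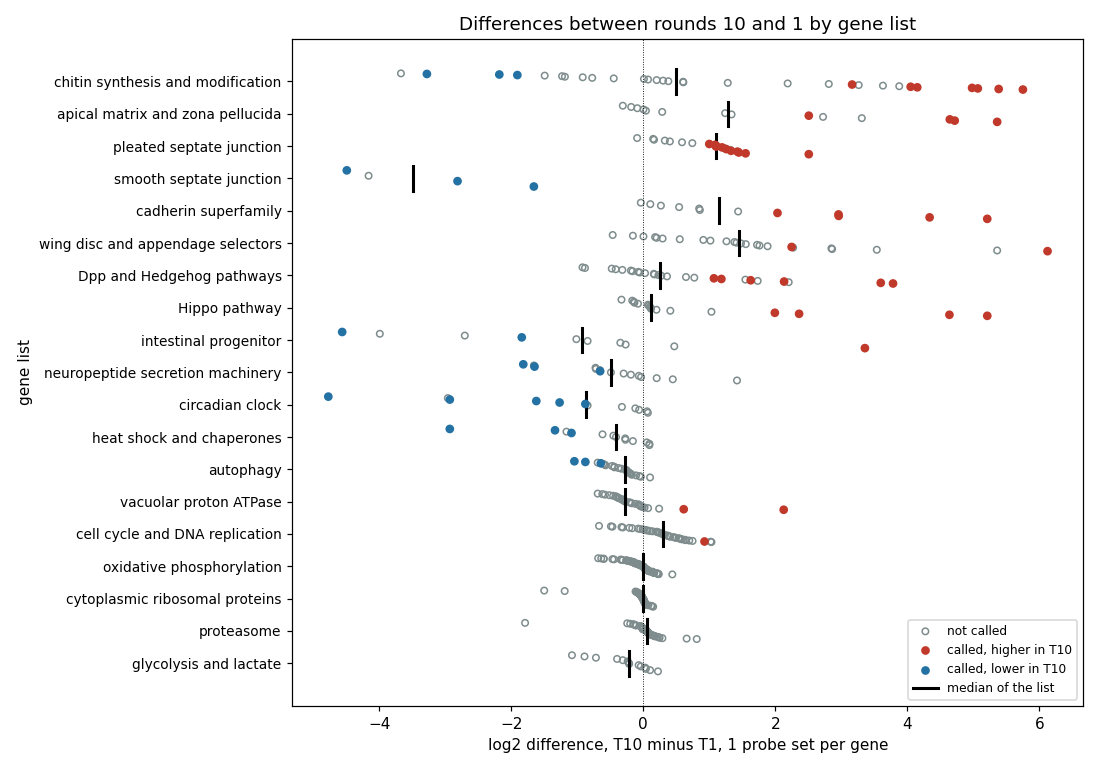
Log2 differences (T10 minus T1) of the genes of 19 lists, 1 point per gene, red for genes called higher in T10, blue for genes called lower and open for the rest, with a bar at the median of each list. Medians ran from -3.49 for the smooth septate junction to 1.45 for wing disc and appendage selectors, and those of cytoplasmic ribosomal proteins, oxidative phosphorylation and the proteasome were -0.01, -0.01 and 0.05.

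Cadherin genes were higher in part and lower in none. Among 12 genes of the superfamily 5 were higher, none was lower, 11 differences were positive and the median was 1.15. The atypical cadherin ds, the ligand of Fat in planar polarity and growth control, was at 9.13, 11 and 9.81 in T10 and at 4.51, 4.38 and 5.42 in T1 (difference 5.21, adjusted p = 0.00757). Cad74A was at 11.15, 11.24 and 11.27 in T10 and 6.24, 6.04 and 8.37 in T1, a difference of 4.34. Cad86C and stan both differed by 2.96, and 3 of the 4 probe sets of Cad86C were called. The gene stan encodes Flamingo, a cadherin of planar cell polarity. Neural cadherin, CadN, was at 8.41, 6.85 and 7.93 in T10 and at 5.79, 5.48 and 5.82 in T1, a difference of 2.03 (adjusted p = 0.0434). E-cadherin itself, shg, differed by 0.85 and did not pass (10.81, 11.12 and 10.76 in T10, against 9.89, 9.76 and 10.50 in T1, adjusted p = 0.0936). Of the 5 higher cadherins, 2 were called without T1 replicate 1 or T1 replicate 2 and 3 without any of the T10 arrays, and ds and Cad86C were called in all 6 of these fits.

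Polarity and adherens junction genes gave 5 higher calls and no lower ones. Of 17 polarity genes 3 were higher and none lower, with a median of 0.24. They were btsz, a synaptotagmin-like protein gene of the apical junction (11.35, 11.25 and 10.98 in T10, against 8.69, 8.60 and 9.57 in T1, difference 2.24), the receptor phosphatase gene Ptp10D (difference 1.32) and scrib (1.30). The probe sets of btsz disagreed in size, with 2 of 4 called, and those of scrib in sign, with differences from -0.63 to 1.30 over 5 probe sets of which 1 was called. The apical determinant crb was at 11.12, 10.22 and 10.40 in T10 and 9.20, 9.59 and 9.56 in T1, a difference of 1.13 that did not pass (adjusted p = 0.0669). The ligand of Ptp10D, sas, was at 12.15, 11.82 and 11.99 in T10 and 7.01, 6.09 and 9.93 in T1. Its difference of 4.31 did not pass either (adjusted p = 0.0604), with T1 values spread over more than 3 log2 units. In the adherens junction list ed, which encodes Echinoid, rose by 2.05 and sdk by 1.86, 2 of 9 genes, and none was lower. None of the polarity genes was called without T1 replicate 1 or 2, and none of the adherens junction genes without T1 replicate 1, T10 replicate 1 or T10 replicate 2.

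Gap junction genes showed a similar pattern in part. The innexin gene ogre, also called Inx1, was at 12.49, 12.35 and 12.08 in T10 and 9.44, 9.15 and 10 in T1, a difference of 2.78 (adjusted p = 0.0054). Its value stayed called without any 1 array. Inx3 rose by 1.04 and was called in 1 of the 6 fits without 1 array, Inx2 was at 12.18, 12.14 and 11.97 in T10 and 10.42, 9.48 and 11.12 in T1 without passing (adjusted p = 0.0655), and Inx7 had a difference of -1.39 (adjusted p = 0.172). The remaining innexins Inx5, Inx6 and zpg were dim, at 3.69 to 5.04 in T10 and 3.71 to 4.93 in T1.

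Basement membrane genes gave no calls, while integrin adhesion genes were called in both directions. None of 12 basement membrane genes was called by limma. Their median was 0.85, and 5 had an unadjusted p under 0.05. Papilin, Ppn, was at 10.47, 9.49 and 8.86 in T10 and 8.06, 6.28 and 7.80 in T1 (difference 2.23, adjusted p = 0.0973), and the collagen IV genes Col4a1 and vkg differed by 1.92 and 1.64 (adjusted p = 0.12 and 0.0763). Among 16 integrin adhesion genes 10 differences were negative. In that list 43.8% lay below T1 on every T10 array and 12.5% above, against 15.1% and 12.9% of all probe sets. Zasp52, an actinin-associated scaffold gene, rose by 1.83, and the integrin alpha genes scb and ItgaPS4 fell by 1.76 and 2.24. Transcripts of scb were at 8.60, 7.71 and 7.88 in T10 and at 9.87, 10.24 and 9.37 in T1. Matrix proteases split as well. AdamTS-B was at 10.69, 11.07 and 10.47 in T10 and at 7.95, 8.37 and 8.45 in T1 (difference 2.49, adjusted p = 0.00509). The related metalloprotease gene stl was at 5.22, 5.26 and 6.63 in T10 and at 7.66, 9.44 and 9.05 in T1 (difference -3.01, adjusted p = 0.0435). AdamTS-B was called in all 6 fits without 1 array, stl, Zasp52, scb and ItgaPS4 in 0, 1, 2 and 2 of them.

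The list of Snail family and mesenchymal genes gave 3 calls. Of its 10 genes, ap and CadN were higher, mib2 was lower (by 0.54), and the median was -0.01. Of the 6 fits without 1 array, ap was called in 4 and CadN and mib2 in 1 each. No gene of this list was called without T1 replicate 1 or T1 replicate 2. The gene ap is the wing selector described above and is counted in the wing list too, so its rise does not stand for mesenchyme. Transcripts of twi, htl and wor lay between 3.55 and 4.53 on all 6 arrays, below the lower quartile of each. Those of sna were at 7.90, 9.16 and 9.46 in T10 and 11.27, 10.11 and 10.31 in T1. The rounds did not overlap, but the difference of -1.72 did not pass (SE 0.50, adjusted p = 0.112). Whether the probe set reads the transgene, the endogenous gene or both was not tested. The esg gene, whose regulatory region drives the transgenes, was at 10.53, 9.39 and 9.70 in T10 and 11.23, 10.51 and 10.92 in T1, where T10 replicate 1 lay just above the lowest T1 array (difference -1.01, adjusted p = 0.151).

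Among transcription factors of wing and appendage patterning 22 of 24 differences were positive and 11 genes lay above T1 on every T10 array, but only ap and nab were called. The share above T1 was 45.8%, against 12.9% of all probe sets. The median was 1.45, and the 2 calls were 0 without T1 replicate 1 or 2, 1 without T1 replicate 3 or T10 replicate 3, and 4 without T10 replicate 1 or 2. The transcriptional cofactor gene nab was at 6.67, 8.40 and 7.18 in T10 and 5.32, 5.03 and 5.16 in T1 (difference 2.25, adjusted p = 0.0421). The homeobox gene Dr was at 6.0, 10.68 and 9.23 in T10 and at 3.36, 3.15 and 3.32 in T1. That difference of 5.36 did not pass (adjusted p = 0.0532). Sox15, a factor of the wing hinge, was at 8.00, 11.85 and 7.83 in T10 and at 5.76, 5.76 and 5.55 in T1. The wing genes rn and nub were highest in T10 replicate 2 as well, at 9.91 and 9.69, against 6.70 to 8.19 on the other T10 arrays and 5.87 to 7.34 in T1. The ladybird genes lbl and lbe, the limb gene Dll and the aristaless gene al also lay above T1 on every T10 array without being called, with differences of 2.85, 2.27, 1.38 and 0.55.

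**Figure D4:**
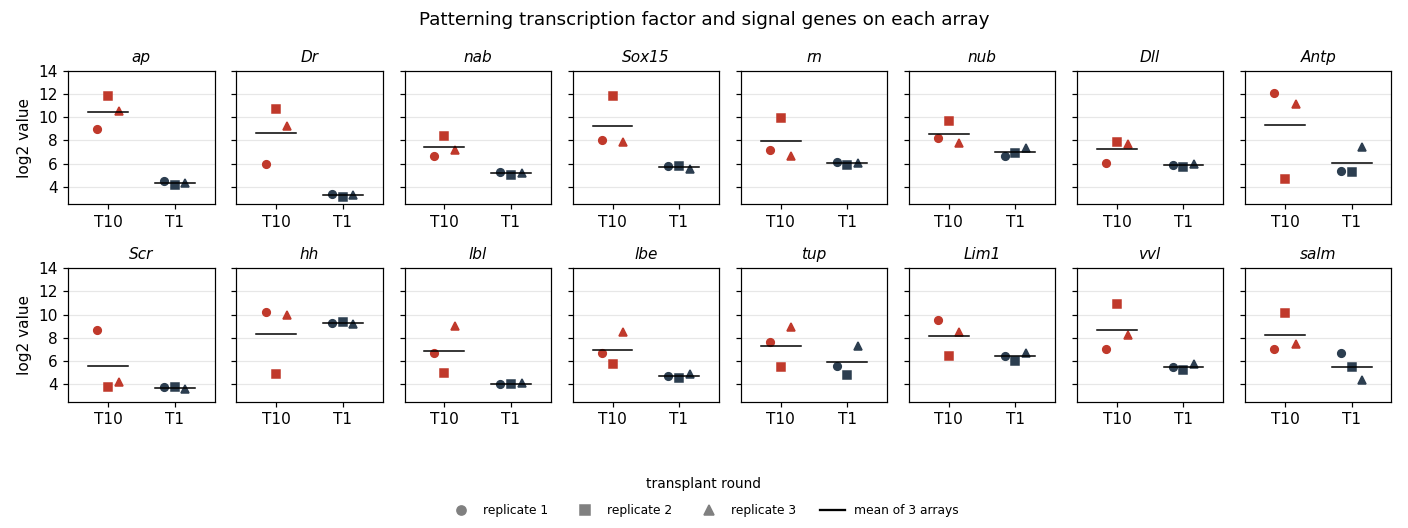
Log2 values of 16 patterning genes on each array, by replicate number, T10 to the left of T1, with a line at the mean of 3 arrays. The T1 arrays of most genes lay close together and low, while T10 replicate 2 was the highest T10 array for ap, Dr, Sox15 and rn and the lowest for Antp, hh and lbl.

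Some patterning genes differed widely among the 3 T10 samples. Antp, the Hox gene of the second thoracic segment, was at 12.09, 4.67 and 11.18 in T10 and 5.35, 5.27 and 7.48 in T1 (adjusted p = 0.405), and its other 2 probe sets put the T10 arrays in the same order. The segment polarity signal hh was at 10.19, 4.92 and 9.99 in T10 and 9.29, 9.40 and 9.17 in T1. The Hox gene Scr was raised in T10 replicate 1 alone, at 8.67, 3.76 and 4.21, against 3.64 to 3.80 in T1. Across all probe sets, 228 spanned 3 log2 units or more among the T10 arrays and 83 among the T1 arrays. At 78 of the 228, T10 replicate 1 lay 2 or more units above both others, and at 61 T10 replicate 2 lay as far below them.

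Higher calls were found in several signaling lists. Of 26 Dpp and Hedgehog genes 6 were higher and none lower, with a median of 0.25. The BMP ligand gene dpp was at 7.47, 9.17 and 8.55 in T10 and 4.28, 3.85 and 5.71 in T1, a difference of 3.78 (adjusted p = 0.0288). Its target Dad, an inhibitory Smad gene, was at 9.18, 10.21 and 9.71 in T10 and at 5.45, 5.43 and 7.43 in T1, a difference of 3.60. The protease gene tld, which frees Dpp from its antagonist, was at 7.56, 7.28 and 7.39 in T10 and 5.31, 5.12 and 5.40 in T1. It had the tightest arrays of the group (difference 2.13, SE 0.12, adjusted p = 0.0022) and stayed called without any 1 array. The Hedgehog co-receptor genes ihog and boi rose by 1.63 and 1.18 and the kinesin-like gene cos by 1.07. Those 6 calls were 1 without T1 replicate 1, T1 replicate 2 or T10 replicate 2, 3 without T10 replicate 1 or 3, and 7 without T1 replicate 3.

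In the Hippo list 4 of 17 genes were higher and none lower, with a median of 0.11. They were ds, its Golgi kinase fj, lft and ex. Transcripts of fj were at 11.23, 11 and 11.27 in T10 and 6.43, 4.91 and 8.25 in T1, a difference of 4.64 (adjusted p = 0.0322). Those of lft, which encodes the Lowfat binding partner of Fat and Dachsous, were at 10.57, 10.88 and 10.36 in T10 and 8.14, 8.67 and 7.92 in T1, a difference of 2.36 (adjusted p = 0.00742). The FERM protein gene ex, both regulator and target of the pathway, rose by 1.99. The core kinase gene hpo differed by -0.13 (adjusted p = 0.454). Without T1 replicate 1 or T1 replicate 2 the count was 2.

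Among Toll pathway genes spz3 and Toll-7 were higher, 2 of 20, and none was lower. The ligand-like gene spz3 was at 11.03, 11.29 and 10.48 in T10 and 5.25, 5.25 and 6.06 in T1. The difference was 5.41 (SE 0.31, adjusted p = 0.00213), and it stayed called without any 1 array. Toll-7, a receptor of the family, was at 10.80, 10.79 and 10.66 in T10 and 7.09, 6.48 and 8.55 in T1, a difference of 3.38, and it was not called without T1 replicate 1, T1 replicate 2, T10 replicate 2 or T10 replicate 3. None of 14 antimicrobial peptide and Imd feedback genes was called by limma (1 had an unadjusted p under 0.05), and AttD was high in replicate 1 of both rounds (9.98 in T10 and 11.04 in T1) and at 4.20 to 6.72 elsewhere. Drosomycin, Drs, a classical Toll target, was at 6.69, 6.49 and 5.53 in T10 and 9.47, 6.95 and 7.06 in T1 (adjusted p = 0.279).

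Among secreted growth and wasting signals Ilp8 was the 1 of 12 genes that was called. This relaxin-like hormone, which growing or damaged discs and tumors release to delay development, was at 11.41, 11.63 and 11.54 in T10 and 7.84, 8.35 and 8.17 in T1. The difference was 3.41 (SE 0.16), or 10.6-fold (adjusted p = 0.00138), with no array near the other round, and it stayed called without any 1 array. The JAK-STAT ligand upd1 was at 12.70, 12.24 and 11.96 in T10 and 10.20, 8.43 and 11.16 in T1 without passing (adjusted p = 0.112). ImpL2, an insulin antagonist, was at 13.36 to 13.51 in T10 and 13.28 to 13.48 in T1. The TNF receptor gene grnd rose by 2.99 and the caspase gene Dcp-1 by 1.01, 2 of 17 JNK and apoptosis genes of which neither was called without T1 replicate 1 or any of the T10 arrays, while the TNF ligand gene egr was at 7.89, 8.30 and 7.95 in T10 and 9.47, 10.44 and 9.09 in T1 (difference -1.62, adjusted p = 0.0586).

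Of 23 EGFR and Ras genes 2 were higher and 2 lower, with a median of 0.07. The immunoglobulin gene hbs rose by 3.16. The ETS repressor gene aop, known as Yan, was at 10.80, 10.75 and 10.28 in T10 and 8.83, 8.95 and 8.61 in T1, a difference of 1.81 (adjusted p = 0.0072), and stayed called without any 1 array. The EGFR ligand genes Krn and grk fell by 1.01 and 0.93. For Krn the values were 9.15, 9.29 and 9.23 in T10 and 10.22, 10.54 and 9.95 in T1, and of the 6 fits without 1 array hbs was called in 2, Krn in 1 and grk in 0. In the Notch list the ligand gene Delta and the channel-like gene bib rose, 2 of 18 genes, and none fell. Delta was at 10.43, 11.05 and 10.58 in T10 and 7.24, 6.72 and 8.03 in T1, a difference of 3.36 (adjusted p = 0.00877), and its second probe set differed by 3.61. Of the Notch targets in the E(spl) complex, E(spl)mdelta-HLH was highest in T10 replicate 2, at 7.22, 10.65 and 7.80 in T10, against 5.67, 5.82 and 4.54 in T1 (adjusted p = 0.114). In the Wnt list the glypican gene dlp rose by 1.68, 1 of 7 genes with a named probe set (called in 1 of the 6 fits without 1 array), and Notum, a feedback target of Wnt signaling, did not differ beyond its spread (9.53, 9.12 and 9.92 in T10, against 8.63, 8.45 and 10.06 in T1, adjusted p = 0.615).

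Genes of intestinal progenitors were called in both directions, and the Sox gene Sox100B had the widest fall among them. Of 10 genes of intestinal progenitors Sox100B and spdo were lower and Delta, described above, was higher, and the median was -0.93. Sox100B, the fly Sox9 homolog active in intestinal stem cells and enteroblasts, was at 4.58, 4.33 and 4.74 in T10 and 9.27, 8.83 and 9.23 in T1. Its difference of -4.56 (SE 0.17, adjusted p = 0.000761) took it below the lower quartile of probe sets on every T10 array. The Notch pathway gene spdo was at 6.14, 6.43 and 6.44 in T10 and 8.45, 7.77 and 8.31 in T1, a difference of -1.84. Another Sox gene of these progenitors, Sox21a, was at 7.81, 5.85 and 10.38 in T10 and 12.21, 11.74 and 12.06 in T1, below T1 on every T10 array but too variable to pass (difference -3.99, adjusted p = 0.0987).

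A few other transcription factor genes fell. The homeobox gene exex, expressed in part of the midgut and in motor neurons, was at 4.04, 4.23 and 4.20 in T10 and 7.12, 7.55 and 8.34 in T1, a difference of -3.51 (adjusted p = 0.00544), the 1 call among 14 regional factors of the midgut. The GATA gene pnr was at 4.65, 3.34 and 7.91 in T10 and 8.85, 9.01 and 9.41 in T1, and the midgut GATA gene GATAe at 6.53, 4.98 and 8.75 in T10 and 8.20, 8.77 and 9.43 in T1, both without passing (adjusted p = 0.119 and 0.277). Lim3, a LIM-homeodomain gene best known from motor neurons, was at 3.60, 3.31 and 3.48 in T10 and 8.04, 8.13 and 7.67 in T1. The difference of -4.48 (SE 0.16, adjusted p = 0.000624) was 1 of the 2 that also passed on all 9 arrays. The Zn finger gene sens-2 was at 3.67, 3.63 and 3.49 in T10 and 7.62, 7.44 and 6.53 in T1, a difference of -3.60. The 4 genes Sox100B, exex, Lim3 and sens-2 all lay below the lower quartile of probe sets on every T10 array and all stayed called without any 1 array.

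Lipid handling genes fell in part. Of 23 genes 4 were lower and none higher, with a median of -0.02. Besides Lip4 they were Npc2a, bmm and Hnf4. Npc2a encodes a sterol carrier and was at 8.02, 8.44 and 8.36 in T10 and 11.21, 11.21 and 10.66 in T1, a difference of -2.75 (adjusted p = 0.00387). The triglyceride lipase gene bmm, the fly homolog of adipose triglyceride lipase, was at 7.05, 6.06 and 7.22 in T10 and 8.82, 9.42 and 9.12 in T1, a difference of -2.34. Hnf4, a nuclear receptor of fat breakdown, fell by 0.70. The count was 2 without T1 replicate 2. Of the unconventional myosins, Myo28B1 was at 3.37, 3.50 and 4.23 in T10 and 9.09, 8.91 and 7.72 in T1 (difference -4.87, adjusted p = 0.0054), and Myo10A ran the other way, at 9.84, 9.84 and 9.51 in T10 and 5.22, 4.35 and 7.19 in T1 (difference 4.14, adjusted p = 0.0304), though Myo10A was called in 1 of the 6 fits without 1 array and Myo28B1 in all 6. Of the 33 enterocyte genes none was called by limma, and 7 had an unadjusted p under 0.05. The trypsin gene alphaTry was dim in both rounds, at 4.44 to 4.58 in T10 and 4.63 to 4.94 in T1. So was betaTry, at 4.46 to 4.55 in T10 and 4.34 to 4.43 in T1. For genes this dim, the lack of a call says little.

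Genes of peptide hormone processing and release had mostly negative differences, and a few fell. Among 15 of them 3 were lower, none was higher and the median was -0.49. On every T10 array 8 of them (53.3%) lay below T1, against 15.1% of all probe sets. The prohormone convertase chaperone gene 7B2 was at 5.21, 5.63 and 5.28 in T10 and 7.68, 6.74 and 7.15 in T1, a difference of -1.82 (adjusted p = 0.0199). Pal2 and Phm, which encode enzymes of peptide amidation, fell by 1.65 and 0.65. The peptide gene Orcokinin was at 4.70, 5.09 and 4.94 in T10 and 7.35, 7.93 and 6.15 in T1, the 1 call among 16 enteroendocrine genes (difference -2.23, adjusted p = 0.046). The peptide genes NPF, AstC, Mip, Dh31 and CCHa2 were near the floor in both rounds. The 3 calls were 0 without T10 replicate 1, 1 without T10 replicate 2, T10 replicate 3 or T1 replicate 2, and 2 without T1 replicate 1, and Orcokinin was called in 1 of the 6 fits without 1 array.

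Several circadian clock genes fell in T10. Of 12 genes 5 were lower, none was higher, and the median was -0.86. The clock is a feedback loop in which Clk and cyc activate per, tim and vri, and per and tim shut them down. Transcripts of tim were at 8.17, 6.31 and 7.86 in T10 and 12.15, 12.31 and 12.19 in T1. The difference was -4.77 (SE 0.48), or 27.3-fold lower (adjusted p = 0.00754), and its other probe set differed by -5.6. Those of the activator Clk were at 4.24, 4.13 and 4.17 in T10 and 7.11, 7.62 and 6.60 in T1, a difference of -2.93 (adjusted p = 0.00544). Both stayed called without any 1 array. The photoreceptor gene cry fell by 1.62, vri by 1.27 and cyc by 0.88. The gene per was at 9.52, 7.65 and 7.74 in T10 and 11.73, 12.27 and 9.79 in T1, below on every T10 array but not past the threshold (adjusted p = 0.097). Genes of both arms of the loop were thus called lower. The hour at which the pieces were taken is not given, so its part in these values was not tested. The count of 5 was 2 without T1 replicate 1, T10 replicate 2 or T10 replicate 3, 3 without T1 replicate 2 or T10 replicate 1, and 7 without T1 replicate 3.

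**Figure D5:**
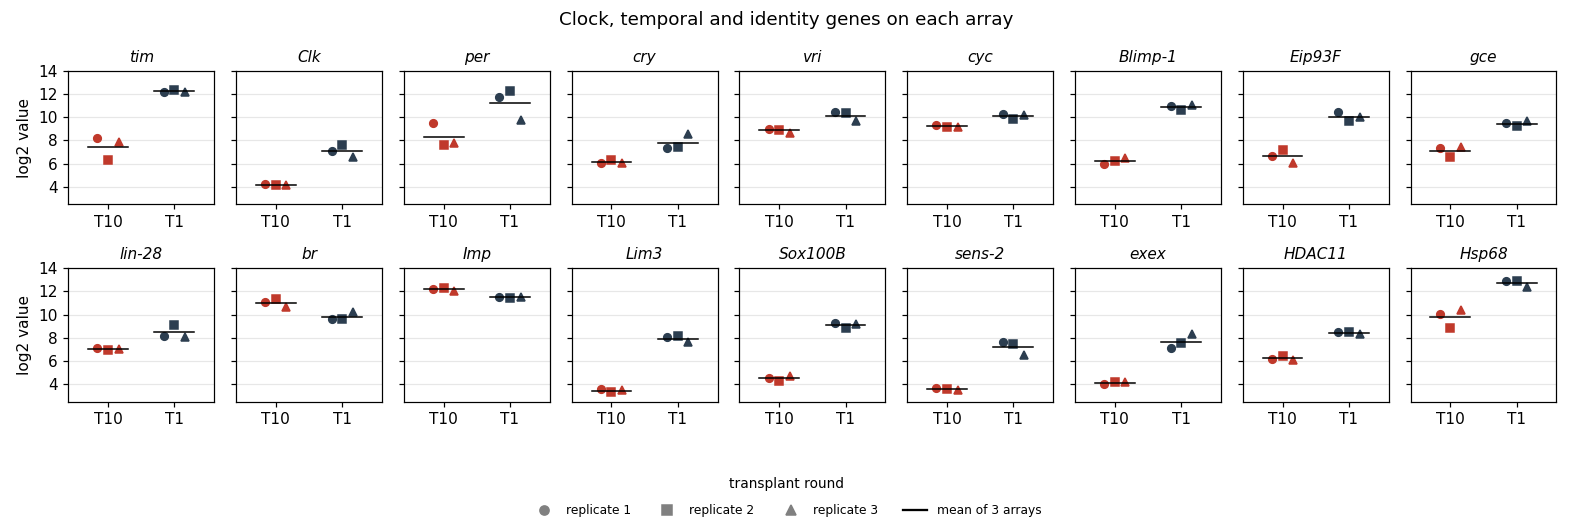
Log2 values of 18 clock, temporal and identity genes on each array, by replicate number, T10 to the left of T1, with a line at the mean of 3 arrays. All but br and Imp were lower in T10, and Lim3, Sox100B, sens-2, exex and Clk lay between 3.31 and 4.74 on every T10 array.

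Genes that mark developmental time moved in both directions. Of 23 ecdysone response and temporal genes 3 were lower and 2 higher, with a median of 0.01. The repressor gene Blimp-1, an early ecdysone target, was at 5.98, 6.19 and 6.48 in T10 and 10.93, 10.59 and 11.03 in T1. Its difference of -4.63 (SE 0.18, adjusted p = 0.000784) was among the firmest of the data set. Eip93F, a factor of late metamorphosis and adult fate, was at 6.67, 7.17 and 6.09 in T10 and 10.41, 9.70 and 10.05 in T1, a difference of -3.41 (adjusted p = 0.00595), and its other probe set differed by -4.93. The juvenile hormone receptor gene gce was at 7.32, 6.57 and 7.47 in T10 and 9.47, 9.21 and 9.70 in T1, a difference of -2.34. The 2 higher genes were br, which marks late larval and pupal stages, and Imp, an RNA-binding protein gene of young progenitors. They rose by 1.23 and 0.70, and 2 of the 5 probe sets of br and 2 of the 4 of Imp were called. The BTB gene chinmo, which acts with Imp in other young tissues, was at 11.47, 12.02 and 11.82 in T10 and 9.40, 6.05 and 10.95 in T1 (adjusted p = 0.216). Its T1 arrays spread over more than 4 log2 units. Neither br nor Imp was called without T1 replicate 1, T1 replicate 2 or T10 replicate 2.

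Heat shock genes gave 3 lower calls and histone deacetylase genes 1. Of 13 heat shock and chaperone genes 3 were lower and none higher, with a median of -0.41. The inducible Hsp68 was at 10.06, 8.88 and 10.43 in T10 and 12.94, 12.86 and 12.36 in T1, a difference of -2.93 (adjusted p = 0.0197). The cochaperone gene DnaJ-1 fell by 1.34 and the small heat shock gene Hsp27 by 1.09, while the constitutive Hsc70-4 and Hsp60A differed by 0.09 each (adjusted p = 0.619 and 0.622). None of the 3 list calls was made without T1 replicate 1 or T1 replicate 2, and 1 was without T10 replicate 2 or T10 replicate 3. Among 9 histone deacetylase and sirtuin genes only HDAC11 was called. It was at 6.19, 6.41 and 6.10 in T10 and 8.47, 8.52 and 8.31 in T1, a difference of -2.20 (SE 0.12, adjusted p = 0.00213), and it stayed called without any 1 array.

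Genes of autophagy and lysosome acidification had small and mostly negative differences. Of 25 autophagy genes 24 had a negative difference, 11 lay below T1 on every T10 array and 3 were called lower, with a median of -0.28. They were Atg18b (7.84, 8.40 and 7.98 in T10, against 9.0, 9.21 and 9.14 in T1, difference -1.04), Atg13 of the initiating kinase complex (10.18, 9.86 and 9.93 in T10, against 10.67, 11.01 and 10.92 in T1, difference -0.88) and the protease gene Atg4b (-0.64). Subunits of the vacuolar proton ATPase, which acidifies lysosomes, had a median of -0.27, and 15 of 31 lay below T1 on every T10 array without any being called lower. Vha36-1 was at 10.31, 9.82 and 10.26 in T10 and 10.74, 10.83 and 10.89 in T1 (difference -0.69, adjusted p = 0.0635). The 2 genes of that list that were higher, VhaAC45RP and Vha100-3, were at 6.37 to 7.74 and 4.15 to 4.39 in T10 and at 4.85 to 5.22 and 3.61 to 3.82 in T1. On all 6 arrays Vha100-3 was dim, below the lower quartile of probe sets (5.01). No gene of that list was called higher without T1 replicate 1 or 2 or without T10 replicate 1 or 2. Without T1 replicate 3 or T10 replicate 3 the list had 1 higher gene. The shares below T1 were 44% for autophagy and 48.4% for the proton ATPase, against 15.1% of all probe sets. In the insulin and TOR list Pdk1 fell by 1.45, the 1 call among 13 genes, which was made again in 2 of the 6 fits without 1 array. No autophagy gene was called without T10 replicate 3, T1 replicate 1 or T1 replicate 2.

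Detoxification genes changed one by one. Among 89 cytochrome P450 genes 1 was higher and 2 lower. Cyp305a1 was at 4.46, 4.76 and 4.51 in T10 and 8.15, 8.59 and 8.64 in T1, a difference of -3.88 (SE 0.17, adjusted p = 0.0013). Cyp6d5 fell by 1.42 and Cyp6a23 rose by 1.46. Among 34 glutathione transferase genes GstE5 and GstD9 rose by 3.25 and 1.15 and GstE2 fell by 1.83. Cyp305a1 was called in all 6 fits without 1 array, GstE5 in 4 and the others in 1 or 2.

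Large housekeeping groups gave no calls. None of 35 cytoplasmic ribosomal protein, 69 mitochondrial ribosomal protein, 73 oxidative phosphorylation, 38 proteasome, 14 glycolysis and 15 ER stress genes was called by limma, and their medians lay between -0.22 and 0.05. Without T1 replicate 3 the calls among them were 1, 1, 4, 2, 0 and 1. Genes with an unadjusted p under 0.05 numbered 1, 3, 6, 1, 3 and 4 in these lists. Cell cycle genes had mostly positive differences. Of 43 genes 33 differences were positive, with a median of 0.29, and Cdk4 was the 1 call, at 10.10, 10.18 and 10.15 in T10 and 9.42, 9.08 and 9.18 in T1 (difference 0.92, adjusted p = 0.0149). Without T1 replicate 3 the count was 9 higher and 1 lower, and it was 0 without T1 replicate 2, T10 replicate 2 or T10 replicate 3.

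Markers of other tissues were compared in the same way. None of 17 muscle, 14 fat body, 26 ovary and 6 oenocyte markers was called by limma (4, 1, 2 and 0 had an unadjusted p under 0.05), and their medians were 0.13, -0.07, -0.08 and -0.17. The yolk protein genes Yp1, Yp2 and Yp3, made by fat body and follicle cells, were at 4.75 to 6.70 in T10 and 4.62 to 7.19 in T1. Of 22 hemocyte markers the scavenger receptor gene crq rose by 1.07 and the engulfment receptor gene drpr fell by 0.99, with a median of 0.19 and 18 positive differences, and the plasmatocyte marker NimC1 was at 5.11, 5.28 and 4.36 in T10 and at 4.32, 4.31 and 4.16 in T1. Of 14 markers of neurons and glia the dim astrocyte gene alrm rose by 0.97. Of 8 Malpighian tubule markers Best2 rose by 1.37, and Prip and Irk2 fell by 2.71 and 0.96. The aquaporin gene Prip was at 5.56, 4.94 and 5.68 in T10 and 8.05, 7.74 and 8.52 in T1. The 6 trachea markers verm, uif, serp, Gasp, vvl and btl had a median of 4.43. The study saw trachea inside T10 tumors by electron microscopy and proposes that tracheal cells may be recruited. Since 5 of these 6 lay above T1 on every T10 array while btl lay below, host trachea in the lysed pieces and a change in tumor cells cannot be told apart from these values. The part of any other tissue in the results above was not tested.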

How the data were processed

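RNA of the 9 samples was amplified from 25 ng over 17 cycles, and 8 µg of labeled cDNA was hybridized to 1 single-channel Affymetrix Drosophila array per sample, with hosts kept at 25 °C per the labels, while the study's methods state a higher temperature. The deposited values were log2 expression values that the authors obtained by RMA with affy and affyPLM, with no version stated for either package. RMA brings the arrays close to 1 common distribution, so a shift of all transcripts together would not show. The table held 18952 probe sets, and the fit covered 18769 after removal of 183 controls. A table of the array's annotation gave 13647 of them 1 gene symbol, 402 several and 4720 none. These last 2 kinds were tested but left unnamed, and 13544 symbols were updated through RefSeq names of assembly Release 6 plus ISO1 MT. No column lacked a sample (0 columns), and the arrays of round 2 were left out of the fit.

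T10 was compared with T1 by limma 3.58.1 in R 4.3.3 (lmFit and eBayes, 6 arrays, no covariate), with Benjamini-Hochberg adjustment over all tested probe sets and a threshold of 0.05. The procedure was tested on simulated data. An exact permutation test of 3 against 3 arrays cannot go below p = 0.1. The number of arrays limits the precision. Each gene was read from its probe set with the highest mean over the 6 arrays. The 51 function lists held 1457 names, of which 1171 were matched, 7 of them by hand to RefSeq symbols, giving 1134 genes, and 11 lists held markers of cell types. Lists and genes were chosen with earlier results of these data known. The text names the 15 largest rises and 15 largest falls among called genes whose rounds did not overlap, up to 5 called genes per list or the 2 with the smallest p, a fixed set (crb, btsz, sas, Cad74A, verm, sna, esg, shg, HDAC11 and Lim3), and further list members chosen after their values were seen. In the fixed set, HDAC11 and Lim3 were included because an earlier fit of these data had called them. Alternatives covered the arrays in the fit, a replicate block, moderation, array weights, normalization, a floor, dim probe sets and thresholds. The genes arm, Apc, Apc2, Ras85D and ft, and sequences of any gene, were not analysed here.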

Additional observations from a re-analysis of the deposited data

Results flagged for a closer look

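Of the 183 control probe sets, which took no part in the comparison, 26 (14.2%) had rounds that did not overlap, and 5 of these differed by 1 or more, all of them lower in T10. They are given here by letter because they were left out of the comparison, and what they measure was not analysed here. Control A was at 8.74, 8.23 and 10.07 in T10 and 12.66, 12.11 and 11.56 in T1 (difference -3.1). Control B was at 7.91, 7.24 and 9.35 in T10 and 11.91, 11.17 and 10.56 in T1 (difference -3.05). Control C was at 10.55, 9.73 and 10.49 in T10 and 13.11, 12.88 and 12.22 in T1 (difference -2.48). Controls D and E had differences of -1.59 and -1.17. The median difference over all controls was 0.04.

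The T2 arrays, which were not in the fit, were placed between the means of T1 (position 0) and T10 (position 1) at the called probe sets. T2 replicate 3 had a median position of 0.92 at those higher in T10 and 0.8 at those lower in T10, and was nearer to T10 at 91.2% and 79.2% of them. T2 replicates 1 and 2 had median positions from -0.06 to 0.08. The difference between these samples was not tested.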

How the results depend on the processing

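The main counts were 560 higher and 562 lower probe sets. All 9 arrays in the limma fit gave 0 higher and 2 lower, a floor under dim values 148 and 139, an adjusted p under 0.01 gave 117 and 80, and the replicate block 255 and 185. With the replicate block, 229 of the higher and 166 of the lower calls were made again, and the uncalled Col4a1, vkg, pasi2 and Chs2 passed (adjusted p = 0.0338, 0.0404, 0.0389 and 0.0264). The replicate numbers are not known to pair the samples, since the labels do not say so. Deviations of same-numbered arrays correlated at -0.01, 0.12 and 0.19, and those of different-numbered arrays at -0.18 to 0.08, which does not settle it. One probe set per gene gave 356 higher, array weights 951 lower, and a difference of 1 or more 360 lower. Without 1 array, the counts ran from 132 to 806 higher and from 131 to 1053 lower. Without both arrays of a replicate number they were 4 and 14 (number 1), 3 and 11 (number 2), and 523 and 469 (number 3). The other counts under an alternative stayed within 1.5 times the main count. The causes were not tested. Of 147 named genes 122 were called, 36 of these in all 6 fits without 1 array, 55 with the replicate block and 2 on all 9 arrays, and none of these 147 changed sign in any alternative. Of the other genes given with values, hh, AttD, CCHa2, Yp1, Yp2, Yp3, ImpL2, htl and wor, none of them called, changed sign without 1 array. Signal limits dim probe sets, whose values near the floor of the array have no reliable order.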

Other observations

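The genes given here were called, lay outside the lists and were picked after their values were seen, so they stand for no group. The zinc finger gene ovo, which directs epidermal differentiation, was at 9.72, 9.96 and 9.34 in T10 and 6.21, 5.19 and 7.30 in T1, a difference of 3.44. The ABC transporter gene snu, needed for the barrier of the cuticle, was at 10.03, 10.54 and 10.28 in T10 and 5.59, 5.0 and 8.13 in T1, a difference of 4.04. The guidance cue gene NetB was at 10.21, 8.94 and 7.91 in T10 and 4.07, 4.15 and 4.68 in T1, a difference of 4.72, and its receptor gene unc-5 differed by 2.54. The teneurin genes Ten-m and Ten-a differed by 3.38 and 3.36.

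Some picked genes were lower, while of the 33 enterocyte genes in the lists none was called by limma and 18 had a positive difference. Some of those 33 were near the floor of the array in both rounds, where the sign of a difference is not reliable. The midgut gene mex1 was at 5.53, 4.85 and 4.96 in T10 and 7.56, 9.06 and 9.06 in T1, a difference of -3.45, with T10 values near the floor of the array. The maltase gene Mal-A5, the phosphatase gene Alp4 and the protease gene Bace had differences of -3.30, -2.87 and -2.97. The odorant-binding protein gene Obp44a was 21.2-fold lower (difference -4.40). Of the called genes, 134 of 350 higher and 151 of 407 lower had only a CG number as a symbol.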
